A study of Homo sapiens with 6 samples.

Results

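Cells make cholesterol from acetyl-CoA through mevalonate, squalene and lanosterol, and the pathway also supplies farnesyl and geranylgeranyl groups for protein prenylation. The transcription factor SREBP2, encoded by SREBF2, switches on the enzymes of synthesis and several sterol transport genes when membrane sterol is low. SCAP escorts SREBP2 from the endoplasmic reticulum to the Golgi, and the INSIG proteins hold SCAP back when sterol is plentiful. The values below describe 30 such genes in HCT116 cells, a human colorectal cancer line, after knockdown of PNO1, a nucleolar factor for maturation of the small ribosomal subunit. They were chosen by gene symbol for their place in the pathway, with earlier results of these data known. Of the 30, 28 had at least 1 probe set that names a single gene, which gave 79 of the 49293 probe sets tested. FDFT1 and CYP51A1 had none and are not analysed here.

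The study compared HCT116 cells transduced with lentivirus carrying an shRNA against PNO1 (sh-PNO1, 3 samples) with HCT116 cells transduced with lentivirus carrying a control shRNA (sh-Ctrl, 3 samples), both for 72 h. Each sample was hybridised to 1 Affymetrix array. Both groups carry a lentiviral insert, and neither the number of hairpins nor of clones is stated. The labels do not say whether replicates came from separate cultures. The p-values therefore reflect only how much these 6 samples varied, and that variation may be technical.

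Median intensity was between 25.6 and 25.9 on every array, and log2 values correlated at 0.998 to 0.999 within groups and at 0.992 to 0.993 between groups. The brightest PNO1 probe set read 105, 108 and 105 in sh-PNO1 cells, against 535, 535 and 532 in sh-Ctrl cells, or 19.8% of control, a log2 fold change of −2.33 ± 0.04 (SE, limma adjusted p = 3.32e-07). An exact two-sided permutation test gave p = 0.1, and groups of 3 cannot give less. The 3' over 5' difference of the ACTB control probe sets, a sign of RNA quality, was 2.25 on the log2 scale on the sh-PNO1 replicate 2 array, against 1.73 to 1.87 on the other 5 arrays. Without that array, 20 member probe sets were lower and 10 higher, close to the counts over all 6 arrays given below. Epithelial markers KRT8, KRT18, KRT19 and EPCAM were bright (group means of 1878 to 3000.4), CDH1 stood at 287 in sh-PNO1 and 232 in sh-Ctrl cells, and VIL1 and CEACAM5 were dim. CDH1 and KRT19 were the 2 of these 7 markers that rose, and none of the 5 fibroblast and 4 leukocyte markers measured passed on its brightest probe set. The summed intensity of the fibroblast markers was 54.9 to 59.2 in sh-PNO1 and 54.2 to 56.6 in sh-Ctrl cells, and that of the leukocyte markers 38.6 to 40.8 in sh-PNO1 and 35.9 to 36.9 in sh-Ctrl cells. In bulk samples such as these, fewer cells of a type and less RNA per cell cannot be told apart.

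Cholesterol genes did not move as 1 block. After PNO1 knockdown TMEM97, STARD4, NPC2, SREBF2, INSIG1, ACAT2 and the early enzymes HMGCS1, IDI1 and FDPS fell on their brightest probe sets, while NPC1, MYLIP and SCAP did not pass. The 7 measured members that turn lanosterol into cholesterol stayed within 0.15 of 0 on the log2 scale on their brightest probe sets. CYP51A1, of the same stage, was not analysed. LBR, which is not a member but carries the same sterol reductase activity as TM7SF2, fell (log2 fold change −1.24). INSIG2, ABCA1, GGPS1 and PMVK rose. TMEM97, a sterol-regulated membrane protein that binds NPC1, fell the most, to 44.2% of the control signal. Of the 79 probe sets, 23 were lower and 10 higher at an adjusted p under 0.05 in limma, against a background of 13.2% lower and 14.8% higher (28.0% in either direction) over all 49293 probe sets. Read from the brightest probe set of each gene, 9 of the 28 genes were lower and 4 higher, where 13.2% of all 18132 genes were lower, 18.4% higher and 31.6% either. Higher calls were thus near the background share and lower calls above it, a difference that was not tested. Because the list was chosen with earlier results of these data known, that difference cannot be read as a result about the pathway. The median log2 fold change of the 28 genes was −0.04, against 0.03 for all genes, and that of the 79 probe sets was −0.06, against 0.01 for all probe sets. The groups did not overlap in 42 of the 79 member probe sets, where 40.2% of all probe sets did not.

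**Figure D1:**
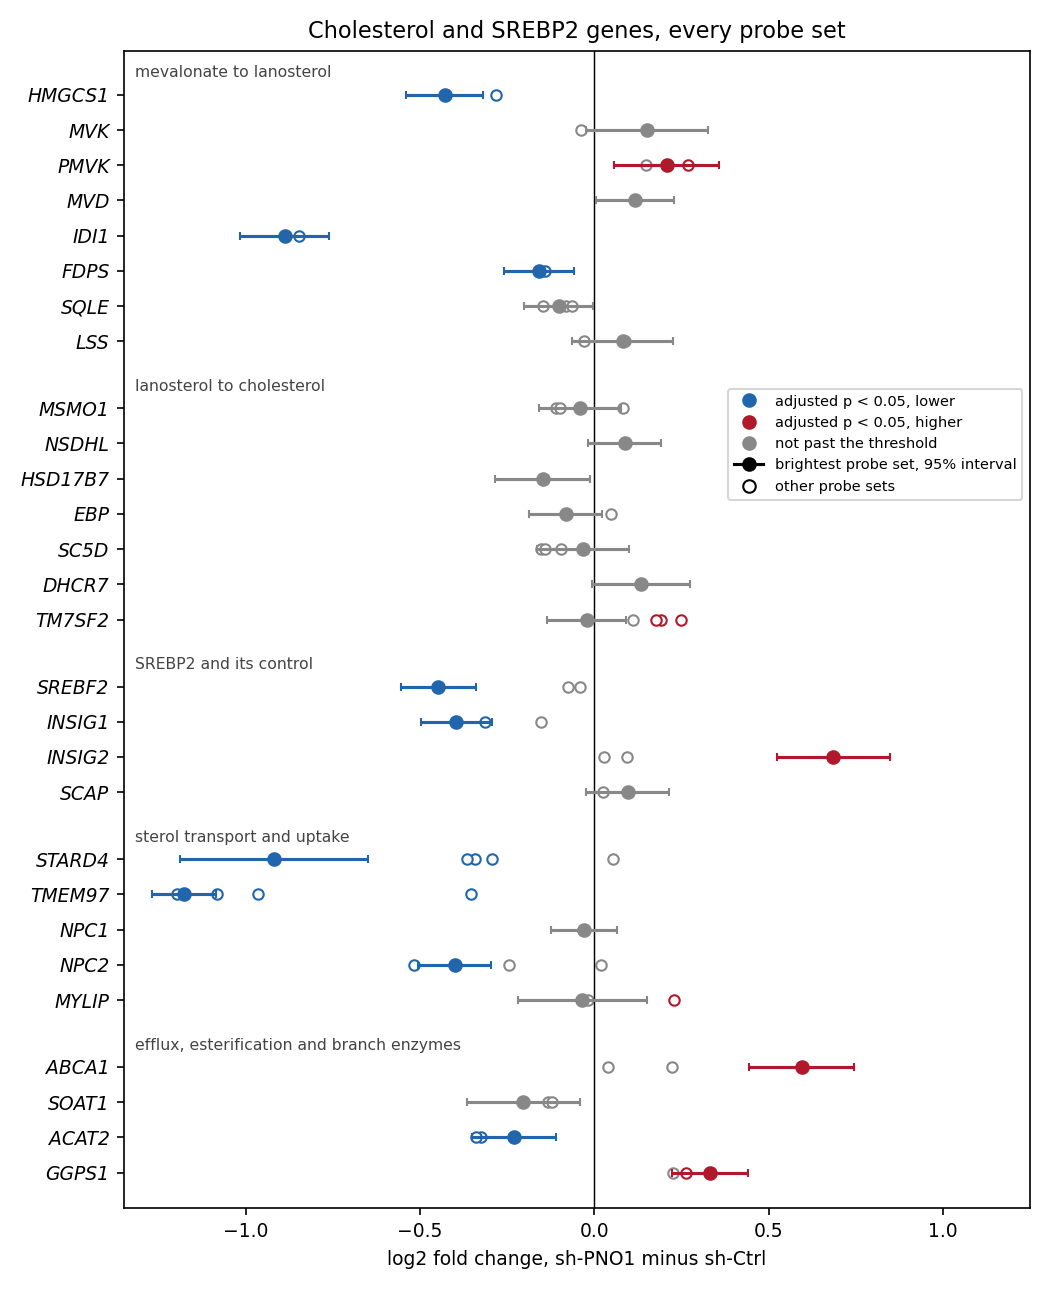
Log2 fold change (x axis, sh-PNO1 minus sh-Ctrl, 3 arrays each) of all 79 probe sets of 28 genes, grouped by role on the y axis; filled points with bars are the brightest probe set and its 95% interval from limma, open points the other probe sets, and colour gives the call at an adjusted p under 0.05. TMEM97, STARD4 and IDI1 lie farthest to the left, the 7 enzymes after lanosterol sit around 0, and INSIG2 and ABCA1 lie to the right on 1 probe set each.

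**Figure D2:**
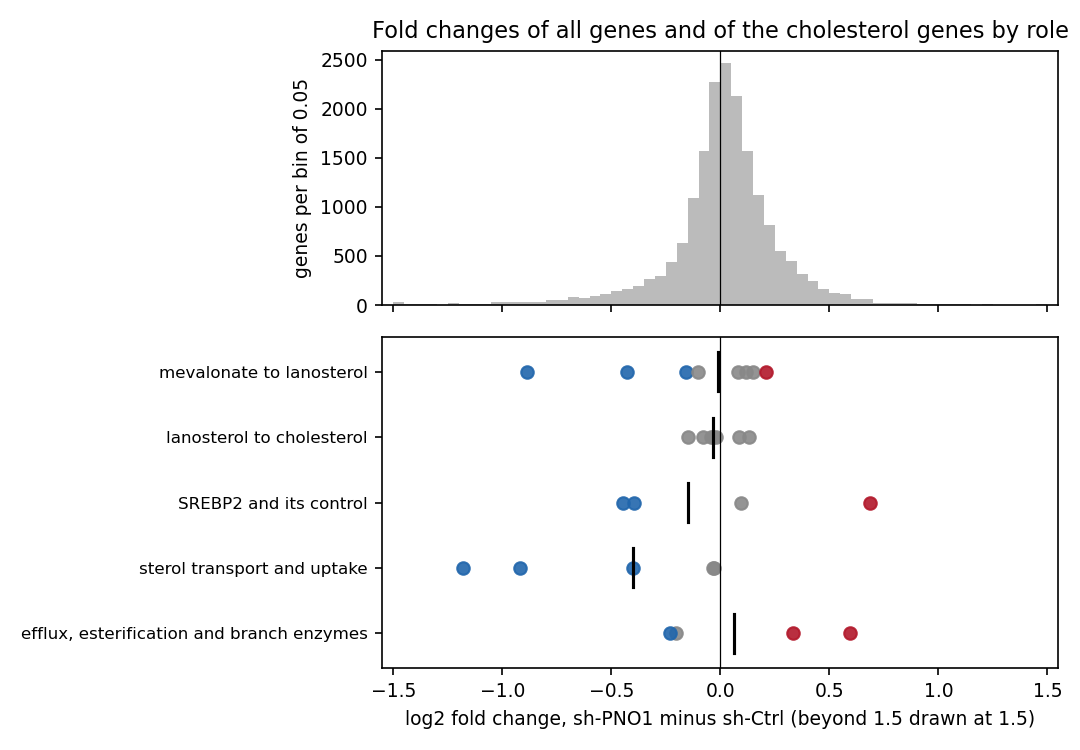
Upper panel, the number of genes in each bin of 0.05 of the log2 fold change (x axis, sh-PNO1 minus sh-Ctrl) for the brightest probe sets of all 18132 genes; lower panel, the same value for each of the 28 cholesterol genes by role, with blue for lower, red for higher, grey for not past the threshold, and a black bar at the median. The medians are −0.40 for sterol transport and uptake and −0.03 for the enzymes after lanosterol.

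Promoter sequences of SREBF2, of 3 other genes that fell and of INSIG2 are shown as examples because SREBP2 acts on promoters, often beside the factor NF-Y, which binds CCAAT boxes. Sequences are the 250 bases before the RefSeq transcription start in GRCh38.p14, written 5′ to 3′ along the gene's strand, for SREBF2 at chr22:41832855-41833104 (+), TMEM97 at chr17:28318950-28319199 (+), STARD4 at chr5:111512536-111512785 (−), INSIG1 at chr7:155297628-155297877 (+) and INSIG2 at chr2:118088221-118088470 (+). Capitals mark each match on either strand to CCAAT, which reads ATTGG when it lies on the opposite strand. They also mark any match to the sterol regulatory element TCACNCCAC. SREBF2, TMEM97, STARD4 and INSIG1 are 4 of the genes that fell, and INSIG2, their counterpart that went up, has no match in capitals.
SREBF2: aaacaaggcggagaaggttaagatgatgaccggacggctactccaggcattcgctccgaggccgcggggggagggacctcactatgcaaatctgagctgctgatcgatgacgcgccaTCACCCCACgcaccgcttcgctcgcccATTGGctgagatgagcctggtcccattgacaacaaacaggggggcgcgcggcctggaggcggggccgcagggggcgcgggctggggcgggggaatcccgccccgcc
TMEM97: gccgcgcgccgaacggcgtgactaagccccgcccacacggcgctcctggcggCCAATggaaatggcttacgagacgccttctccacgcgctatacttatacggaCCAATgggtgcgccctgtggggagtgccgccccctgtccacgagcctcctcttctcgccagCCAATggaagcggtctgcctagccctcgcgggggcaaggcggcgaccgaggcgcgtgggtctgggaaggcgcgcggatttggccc
STARD4: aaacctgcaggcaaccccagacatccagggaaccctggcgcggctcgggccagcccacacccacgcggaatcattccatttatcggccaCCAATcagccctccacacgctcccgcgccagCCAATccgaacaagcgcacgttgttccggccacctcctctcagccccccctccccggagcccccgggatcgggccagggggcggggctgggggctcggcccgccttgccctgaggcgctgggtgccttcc
INSIG1: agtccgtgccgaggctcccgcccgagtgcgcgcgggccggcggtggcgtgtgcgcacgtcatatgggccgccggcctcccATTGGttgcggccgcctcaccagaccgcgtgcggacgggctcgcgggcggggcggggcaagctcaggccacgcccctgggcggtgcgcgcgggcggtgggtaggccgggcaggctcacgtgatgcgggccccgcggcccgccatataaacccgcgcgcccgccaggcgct
INSIG2: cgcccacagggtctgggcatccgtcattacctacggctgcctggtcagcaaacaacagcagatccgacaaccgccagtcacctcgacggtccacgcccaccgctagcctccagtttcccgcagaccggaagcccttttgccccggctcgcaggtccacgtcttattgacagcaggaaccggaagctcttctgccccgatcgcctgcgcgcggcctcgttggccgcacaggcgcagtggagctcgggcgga

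The SREBF2 window holds a sterol regulatory element that begins 133 bases before the start, and 1 CCAAT box. The TMEM97 window holds 3 CCAAT boxes, that of STARD4 holds 2 and that of INSIG1 holds 1. RefSeq windows were found for 27 of the 30 genes, 36 windows in all. TCACNCCAC was present in 1 of the 36, that of SREBF2, and in 0.883% of all 35116 windows of this length. CCAAT was present in 23 of the 36 and in 32.0% of all windows, and the GC box GGGCGG (either strand, not capitalised above) in 33 of the 36 and in 42.6% of all. A CCAAT box lay in at least 1 window of 8 of the 8 genes with a window that fell, of 1 of the 4 that rose, and of 12 of the 14 measured genes that did neither. These matches describe letters and not binding, and a window without a match says nothing about the factor.

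Of the 5 transport and uptake genes 3 fell and none rose on the brightest probe set, and 11 of their 19 probe sets were lower and 1 higher. TMEM97 gave the clearest decrease. Its brightest probe set read 239, 241 and 237 in sh-PNO1 cells, against 538, 540.5 and 545 in sh-Ctrl cells. The groups lay far apart and each varied little (mean 239 ± 2.33 in sh-PNO1 and 541 ± 3.43 in sh-Ctrl, SD, n = 3). The log2 fold change was −1.18 ± 0.04 SE (limma adjusted p = 1.94e-06). All 5 TMEM97 probe sets fell, by log2 values of −0.36 to −1.20, and the 3 member probe sets with a decrease of 2-fold or more are all of this gene, where 0.706% of all probe sets fell that far.

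STARD4, a soluble carrier that moves cholesterol between membranes, was next. Its brightest probe set read 24.9, 24.4 and 20.2 in sh-PNO1 cells, against 43.8, 50.4 and 37.7 in sh-Ctrl cells. The sh-Ctrl arrays were all higher and spread more widely (log2 fold change −0.92 ± 0.12 SE, adjusted p = 0.000707). Of its 5 probe sets 4 fell, the dimmer ones by only −0.29 to −0.36, and the dimmest, at 4.18 in sh-PNO1 and 4.03 in sh-Ctrl cells, did not pass. With its probe sets averaged STARD4 fell by 0.37 on the log2 scale (adjusted p = 0.000113). The array's 23 background probe sets averaged 2.53 to 773 depending on GC content, and 16 of them lay below the STARD4 mean in sh-PNO1 cells and 18 below that in sh-Ctrl cells.

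NPC2 and NPC1 hand cholesterol out of the lysosome, NPC2 as a soluble protein and NPC1 in the membrane. NPC2 read 801, 805 and 851 in sh-PNO1 cells, against 1103, 1069 and 1069 in sh-Ctrl cells. No sh-PNO1 array reached a sh-Ctrl array, and the level fell to 75.8% of the control (log2 fold change −0.40 ± 0.05 SE, adjusted p = 0.000398). The other bright NPC2 probe set fell too (−0.52, adjusted p = 0.000199). The remaining 2, both dimmer, did not pass, with log2 values of 0.02 and −0.25. NPC1 stood at 65.9 ± 1.36 in sh-PNO1 and 67.2 ± 0.29 in sh-Ctrl cells (SD, n = 3). Its log2 difference of −0.03 had a 95% interval of −0.12 to 0.07, and its other probe set also gave −0.03. MYLIP, a ubiquitin ligase that marks lipoprotein receptors for degradation, differed by −0.03 on its brightest probe set (adjusted p = 0.792) and −0.02 on its dimmest. Its middle probe set rose by 0.23, with 58.6, 58.5 and 55.3 in sh-PNO1 cells, against 50.6, 47.3 and 49.4 in sh-Ctrl cells (adjusted p = 0.00904).

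**Figure D3:**
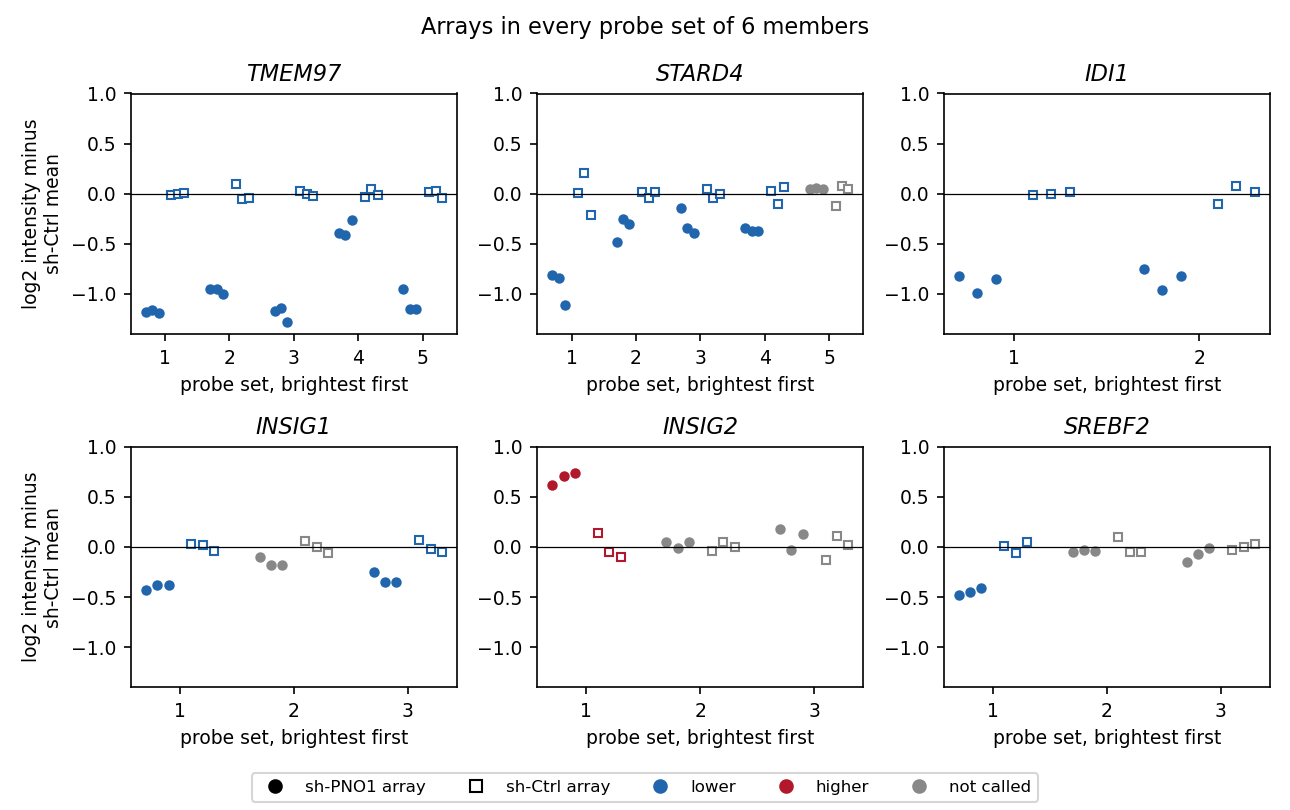
Log2 intensity of each array minus the sh-Ctrl mean of the same probe set (y axis) for every probe set of 6 genes (x axis, brightest first); filled circles are the 3 sh-PNO1 arrays, open squares the 3 sh-Ctrl arrays, and colour gives the call. All 5 TMEM97 and both IDI1 probe sets fell, whereas INSIG2 rose and SREBF2 fell on the brightest of 3 probe sets.

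Among SREBF2 and the 3 genes that control its product, 2 fell, 1 rose and 1 did not pass. SREBF2 itself read 63.6, 64.8 and 66.6 in sh-PNO1 cells, against 89.3, 85.2 and 91.4 in sh-Ctrl cells on its brightest probe set. The groups were apart and the level fell to 73.3% of the control (log2 fold change −0.45 ± 0.05 SE, adjusted p = 0.000263). The other 2 SREBF2 probe sets differed by −0.04 (adjusted p = 0.604) and −0.08 (adjusted p = 0.319), and the mean of all 3 fell by 0.19 on the log2 scale (adjusted p = 0.00445 in a fit over genes). Which transcripts each probe set reads was not analysed here.

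INSIG1, the SREBP2 target that retains SCAP in the endoplasmic reticulum, read 197, 205 and 204 in sh-PNO1 cells, against 271, 269 and 258 in sh-Ctrl cells. All sh-PNO1 arrays were lower (log2 fold change −0.40 ± 0.04 SE, adjusted p = 0.000367). Of its 3 probe sets 2 fell, and the middle one differed by −0.15 (adjusted p = 0.0561). The brightest carries the suffix _s_at, which like _x_at marks probes that may also match other sequences. Without _s_at and _x_at probe sets INSIG1 was read from the middle one, of suffix _a_at, as the brightest left, and did not pass (adjusted p = 0.0663). The dimmest, also of suffix _a_at, was lower in the main fit (−0.31, limma adjusted p = 0.00255).

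INSIG2, the related retention protein that is known to be less dependent on SREBP2, went the other way. Its brightest probe set read 98.3, 105 and 107 in sh-PNO1 cells, against 70.9, 62.2 and 59.9 in sh-Ctrl cells. The groups did not overlap (log2 fold change 0.69 ± 0.07 SE, adjusted p = 0.00024). The other 2 probe sets differed by only 0.03 and 0.09 (adjusted p = 0.689 and 0.422). With the 3 averaged INSIG2 rose by 0.27 (adjusted p = 0.000815 in the fit over genes). SCAP stood at 135.6 ± 4.86 in sh-PNO1 and 126.9 ± 5.45 in sh-Ctrl cells (SD, n = 3), and neither of its probe sets passed (log2 differences 0.10 and 0.02).

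Among the 8 measured enzymes from HMGCS1 to LSS, 3 fell and 1 rose, and ACAT2, which feeds HMGCS1, is given further below. IDI1, the isomerase that makes dimethylallyl diphosphate, read 113, 100.2 and 110.5 in sh-PNO1 cells, against 198, 199 and 202 in sh-Ctrl cells. Its level was 54.0% of the control with no overlap (log2 fold change −0.89 ± 0.06 SE, adjusted p = 2.12e-05), and its other probe set fell by nearly as much (−0.85). HMGCS1, the synthase that makes HMG-CoA, read 109, 106 and 109 in sh-PNO1 cells, against 147, 150.3 and 138 in sh-Ctrl cells. Again every sh-PNO1 array was lower (log2 fold change −0.43 ± 0.05 SE, adjusted p = 0.000375), and the other HMGCS1 probe set also fell (−0.28, adjusted p = 0.0241).

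FDPS, which makes farnesyl diphosphate, fell by little, with 448, 457 and 449 in sh-PNO1 cells, against 514, 511 and 487 in sh-Ctrl cells (log2 fold change −0.16 ± 0.04 SE, adjusted p = 0.0284). Both FDPS probe sets passed, and both have the suffix _s_at. The call ended with any array but sh-Ctrl replicate 3 left out (adjusted p up to 0.0851, without sh-Ctrl replicate 1). PMVK, phosphomevalonate kinase, went up, with 119.7, 139 and 135 in sh-PNO1 cells, against 114, 109 and 118 in sh-Ctrl cells (log2 fold change 0.21 ± 0.06 SE, adjusted p = 0.0468). A second of its 3 probe sets rose by 0.27 (adjusted p = 0.00479), but the call on the brightest ended with any array but sh-PNO1 replicate 1 left out (adjusted p up to 0.149, without sh-Ctrl replicate 2).

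The other 4 early enzymes did not pass on any of their 10 probe sets. SQLE, the epoxidase that is a main control point of the pathway, read 178, 169 and 175 in sh-PNO1 cells, against 186, 188 and 186 in sh-Ctrl cells. The groups were apart by a small step, a log2 difference of −0.10 with a 95% interval of −0.20 to −0.004, and an adjusted p of 0.117. All 4 SQLE probe sets lay below 0, between −0.06 and −0.15, and their mean passed in the fit over genes (−0.10, adjusted p = 0.0476). MVK, mevalonate kinase, differed by 0.15 (adjusted p = 0.189), MVD, the decarboxylase of the same branch, by 0.12 (adjusted p = 0.12) and LSS, lanosterol synthase, by 0.08 (adjusted p = 0.386).

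None of the 7 measured members that turn lanosterol into cholesterol passed on its brightest probe set. LBR, in a related list below, is not among them and fell. The demethylation enzymes MSMO1 and NSDHL differed by −0.04 and 0.09, the ketoreductase HSD17B7 by −0.15, the isomerase EBP by −0.08 and the desaturase SC5D by −0.03. DHCR7, which makes cholesterol from 7-dehydrocholesterol, differed by 0.13, and TM7SF2, a sterol reductase, by −0.02. The 95% intervals of these brightest probe sets all lay between −0.28 and 0.27 on the log2 scale. Signal changes as large as that of IDI1 are outside these intervals, which reflect only how much these samples varied. At an unadjusted p under 0.05 in limma, 1 of the 7, HSD17B7, was lower. Its only probe set was dim, with 22.4 ± 0.44 in sh-PNO1 and 24.9 ± 1.77 in sh-Ctrl cells (SD, n = 3), and the gene has a near-identical pseudogene copy. TM7SF2 was less clear than the rest, since 3 of its 5 probe sets rose, by 0.18 to 0.25. Its probe sets averaged gave 0.14 (adjusted p = 0.0192). All 5 have the suffix _s_at or _x_at.

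**Figure D4:**
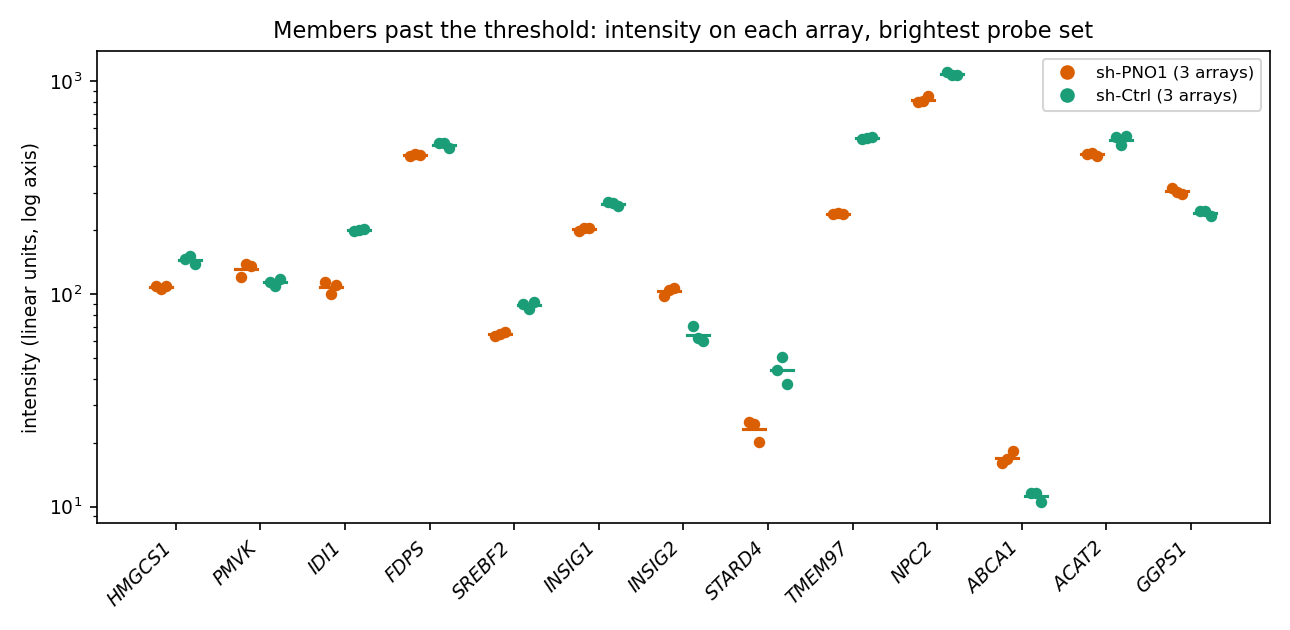
Intensity on each array (y axis, linear units on a log axis) of the brightest probe set of the 13 genes past the threshold (x axis), with orange points for the 3 sh-PNO1 arrays, green points for the 3 sh-Ctrl arrays and a bar at each group mean. The groups do not overlap for any of the 13, the step being widest for TMEM97 (mean 239 in sh-PNO1 and 541 in sh-Ctrl) and small for FDPS and PMVK.

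The 4 remaining members are ABCA1 of efflux, SOAT1 of esterification, GGPS1 of branch synthesis and the thiolase ACAT2. Of these 2 rose, 1 fell and 1 did not pass. ABCA1, the transporter that exports cholesterol and a classic target of the sterol receptor LXR, read 15.99, 16.8 and 18.3 in sh-PNO1 cells, against 11.6, 11.6 and 10.5 in sh-Ctrl cells. Every sh-PNO1 array was higher (log2 fold change 0.60 ± 0.07 SE, adjusted p = 0.000348). The probe set is dim, with 15 of the 23 background probe sets below its sh-PNO1 mean and 14 below its sh-Ctrl mean. The other 2, dimmer still, did not pass (0.22 and 0.04). With the 3 averaged ABCA1 rose by 0.29 (adjusted p = 0.00181). SOAT1, which stores cholesterol as esters, differed by −0.20 and missed the threshold (adjusted p = 0.0674), with 101.5, 115 and 104 in sh-PNO1 cells, against 125, 131 and 114 in sh-Ctrl cells. All 3 SOAT1 probe sets were below 0, and their mean passed in the fit over genes (−0.15, adjusted p = 0.0179).

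ACAT2, the cytosolic thiolase that feeds HMGCS1, read 456, 460.1 and 443 in sh-PNO1 cells, against 546, 499 and 552 in sh-Ctrl cells. No arrays overlapped (log2 fold change −0.23 ± 0.05 SE, adjusted p = 0.0122), and the other 2 ACAT2 probe sets fell by more (−0.33 and −0.34). GGPS1, which makes geranylgeranyl diphosphate for prenylation, read 315, 302 and 294 in sh-PNO1 cells, against 244, 246 and 233 in sh-Ctrl cells. It rose to 126% of the control (log2 fold change 0.33 ± 0.05 SE, adjusted p = 0.00129), with 2 of 3 probe sets past the threshold and the other at 0.23 (adjusted p = 0.0872).

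Probe sets of 1 gene thus often disagreed in size. Of the 24 genes with several probe sets, 5 (HMGCS1, IDI1, FDPS, TMEM97 and ACAT2) had every probe set lower, none had every one higher, 10 had only some past the threshold, and none had calls in both directions. Of 11 measured genes whose annotation overlaps a member, 6 passed the threshold and 5 did not (adjusted p of 0.285 to 0.793), where 31.6% of all genes passed. The 11 include CYP51A1-AS1, which did not pass and overlaps CYP51A1, a member not analysed here. IFT20, which overlaps TMEM97, rose by 0.41 (adjusted p = 0.00079), TCP1, which overlaps ACAT2, by 0.17 (adjusted p = 0.0251), while ARID4B, which overlaps GGPS1, fell by 0.45 on the log2 scale (adjusted p = 0.000363). These 3 changed opposite to the member they overlap. WDR37, which overlaps IDI1, fell with it (−0.55, adjusted p = 0.000495), and MMAB, a cobalamin enzyme gene that overlaps MVK, fell (−0.68, adjusted p = 3.52e-05) while MVK did not pass. RMC1, which overlaps NPC1, rose by 0.27 (adjusted p = 0.0039) while NPC1 did not pass. Whether signal from overlapping genes enters these probe sets was not tested.

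Other genes of sterol and isoprenoid handling, in related lists, are given below by counts to be read against the 13.2% lower, 18.4% higher and 31.6% either of all genes. Of 10 measured genes of SREBP processing and sterol sensing, 5 fell and 3 rose, with a median of −0.23. RNF145, a sterol-responsive ubiquitin ligase counted among the 5 (−0.38, adjusted p = 0.000358), was uncertain, since its next brightest probe sets rose by 0.74 (adjusted p = 3.10e-05) and 0.57 (adjusted p = 0.000213). FAF2, which extracts ubiquitinated INSIG1 for degradation, fell by 0.74 on the log2 scale (302.6 ± 12.2 in sh-PNO1 and 505.9 ± 4.69 in sh-Ctrl cells, SD, n = 3, adjusted p = 2.21e-05), with 4 of its 6 probe sets lower. ERLIN1, an endoplasmic reticulum scaffold for sterol-regulated degradation, fell by 0.38 (adjusted p = 0.000281) on 3 of 3 probe sets, and RNF139, a sterol-sensing ubiquitin ligase, rose by 0.40 (adjusted p = 0.000307) on 1 of 2, and by 0.15 with both averaged. SREBF1 did not pass (−0.08, adjusted p = 0.325), nor did the protease gene MBTPS1 on its brightest probe set (0.06, adjusted p = 0.384), while its other probe set fell (−0.36, adjusted p = 0.0079). The other protease gene, MBTPS2, counted among the 5, fell on its brightest probe set (−0.43, limma adjusted p = 0.000559). The dimmer MBTPS2 probe set did not pass (−0.008, limma adjusted p = 0.92).

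In the isoprenoid branch 2 of 11 measured genes fell and 3 rose, near the shares of all genes, with a median of 0.06. ICMT, which methylates prenylated proteins, fell the most of these (135.4 ± 0.95 in sh-PNO1 and 266.7 ± 5.60 in sh-Ctrl cells, SD, n = 3, log2 fold change −0.98 ± 0.04 SE, adjusted p = 4.51e-06), on both probe sets. RABGGTA, a subunit of the Rab prenyltransferase, rose by 0.30 (adjusted p = 0.00349), and PDSS2, which makes the coenzyme Q tail, by 0.30 (adjusted p = 0.00686). PDSS2 was uncertain, because another of its 3 probe sets fell by 0.34 on the log2 scale and their mean stood at 0.0016 (adjusted p = 0.982). Once _s_at and _x_at probe sets were dropped, RABGGTA stood at 0.17 and no longer passed (adjusted p = 0.0532).

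Of 14 other transport and storage genes 3 fell and 2 rose, near the share of all genes called in either direction, with a median of −0.02. LBR, the lamin B receptor, which carries the same sterol reductase activity as TM7SF2, fell to 307.9 ± 5.37 in sh-PNO1 cells, against 729.1 ± 17.7 in sh-Ctrl cells (SD, n = 3, log2 fold change −1.24 ± 0.04 SE, adjusted p = 1.98e-06), and both of its probe sets passed, the dimmer one at −0.71. LRP8, a lipoprotein receptor, fell on both probe sets (−0.59, adjusted p = 5.86e-05), and LIPA, the lysosomal lipase that frees cholesterol from esters, rose on both (0.43, adjusted p = 0.000388). Of 6 measured LXR genes 2 rose and 0 fell in limma. At an unadjusted p under 0.05 in limma ABCG1 was higher as well, and RXRA and SMPDL3A were lower, each on its brightest probe set. RXRA was uncertain, since its dimmer probe set crossed the same threshold the other way (log2 differences of −0.14 on the brightest and 0.12 on the dimmer). The other ABCG1 probe sets, all dimmer, lay between −0.06 and 0.02 and did not cross it. NR1H3, which encodes LXR alpha, rose by 0.28 (adjusted p = 0.00823), and RXRB, a partner receptor, by 0.19 (adjusted p = 0.0305). The RXRB call ended without sh-PNO1 replicate 1 or 3 or without sh-Ctrl replicate 2 or 3 (adjusted p of 0.0828 to 0.0966).

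SREBP1, the sister factor of SREBP2, drives fatty acid synthesis, and 5 of the 9 genes of that list fell while 1 rose, with a median of −0.34. SCD, the desaturase that makes oleate, fell on 4 of 4 probe sets (1671 ± 51.1 in sh-PNO1 and 2669 ± 16.5 in sh-Ctrl cells, SD, n = 3, log2 fold change −0.68 ± 0.04 SE, adjusted p = 2.49e-05). ACLY, which supplies acetyl-CoA, fell by 0.51 on the log2 scale (adjusted p = 0.000149), and ACSS2, ELOVL5 and FADS1 also fell. ELOVL6, an elongase of the same list, rose on 3 of 3 probe sets (0.38, adjusted p = 0.000478). FASN differed by −0.07 (adjusted p = 0.333).

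**Figure D5:**
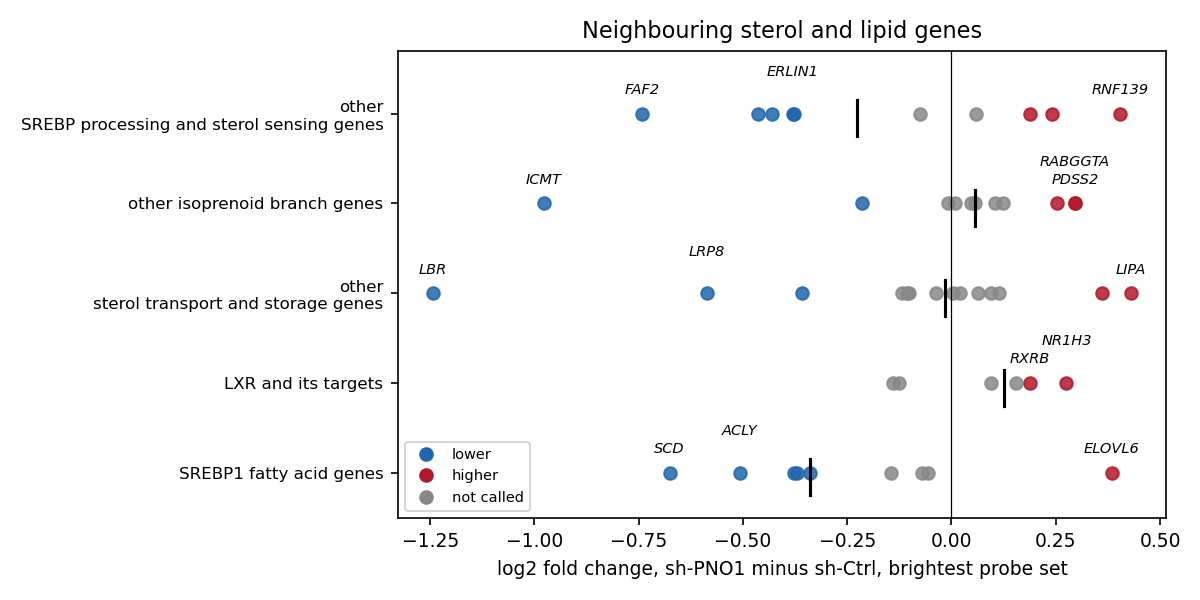
Log2 fold change (x axis, sh-PNO1 minus sh-Ctrl, brightest probe set, 3 arrays each) of every measured gene in 5 related lists (y axis), with blue for lower, red for higher, grey for not past the threshold, a black bar at the list median and names for up to 3 genes a list. LBR and ICMT lie farthest to the left at −1.24 and −0.98, and the fatty acid list has its median at −0.34.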

How the data were processed

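Total RNA of 6 HCT116 samples was measured on Affymetrix arrays. The authors deposited linear-scale intensities, made with RMA per the submitters' processing notes, with version and settings not stated. RMA equalises array distributions, so a shift shared by most genes would not be seen. The log2 of each intensity was tested over 49293 probe sets, 102 control probe sets left out, with limma 3.58.1 (R 4.3.3; lmFit and eBayes, 2 groups, no block) and Benjamini-Hochberg adjustment over all of them, called at 0.05. Genes were named from the platform annotation: 44988 probe sets had 1 symbol, 1832 several and 2473 were not listed. The brightest probe set by mean log2 over 6 arrays stood for a gene. The members and lists were chosen with earlier results of these data known. All members are described; of each other list, up to 3 called genes with the smallest adjusted p are named. Overlapping neighbours, RNF145, ABCG1, SREBF1, MBTPS1, MBTPS2, RXRA, SMPDL3A, ACSS2, ELOVL5, FADS1 and FASN were named after their values were seen. Same-numbered replicates did not deviate together (correlations −0.04, 0.10 and −0.03). The fit was tested on simulated data.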

Additional observations from a re-analysis of the deposited data

How the results depend on the processing

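Of 501 member values under 18 other settings, 456 kept their direction and side of the threshold and 28 no longer passed. A further 9 newly passed in the same direction, and 8 reversed, some of them past the threshold. IDI1 and TMEM97 were the 2 of 13 called genes that passed in the same direction under every setting. Member probe sets counted 23 lower and 10 higher, and 13 lower and 6 higher without the _s_at and _x_at probe sets, where fewer were tested. A test against a log2 change of 0.5 left 6 lower and 0 higher probe sets, and 2 lower and 0 higher genes. With 1 array left out, lower probe sets ranged over 20 to 24, higher ones over 8 to 11, lower genes over 8 to 10 and higher genes over 3 to 4. Over all probe sets 13791 were called, and 8711 without _s_at and _x_at probe sets, 8666 at an adjusted p under 0.01 and 963 against a log2 change of 0.5. Reversed values were those of genes not called, bar PDSS2, and the cause was not tested. Without the _s_at and _x_at probe sets EBP stood at 0.047, MYLIP at 0.23 and PDSS2 at −0.34. Of these MYLIP (limma adjusted p = 0.011) and PDSS2 (limma adjusted p = 0.0229) passed in the new direction. With probe sets averaged TM7SF2 stood at 0.14, which passed (limma adjusted p = 0.0192), and MYLIP at 0.058. With 1 array left out, SC5D ranged over −0.088 to 0.0059 (above 0 without sh-PNO1 replicate 2) and TM7SF2 over −0.049 to 0.0104 (above 0 without sh-Ctrl replicate 2). MYLIP ranged over −0.094 to 0.039 (above 0 without sh-PNO1 replicate 1 and, at 0.0047, without sh-Ctrl replicate 2). The replicate block gave 22 lower and 10 higher member probe sets, and 9 lower and 3 higher genes. Under it FDPS (adjusted p = 0.0594) and PMVK (adjusted p = 0.0611) no longer passed and SOAT1 did (adjusted p = 0.0384); replicate numbers are not known to pair the samples. The number of arrays and the signal over background limit the precision.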
